A study of Homo sapiens with 23 samples.

Results

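The B cell receptor signals through a short chain of proteins, and the 10 genes described here encode its core together with CD45: CD79A, CD79B, SYK, BTK, LYN, BLNK, PLCG2, PIK3CD, PTPN6 and PTPRC. They were taken by symbol from a count table of 28395 genes, and all 10 were among the 16468 genes tested after the filter on low counts. RNA was measured by sequencing in 4 human multiple myeloma lines (malignant plasma cells grown in culture), H929, MM1S, OPM2 and RPMI-8226. Each line carried an inducible CRISPR guide RNA, either the Irf4 guide or a guide labelled EV, and libraries of both kinds came from cultures given doxycycline for 48 hours to switch the guide on. The groups of 1 line and 1 guide had 3 libraries each, except MM1S with the EV guide, which had 2 (replicates 2 and 3). A single guide against IRF4 was used. What EV stands for and the guide's sequence are not stated in the labels, which also do not call replicates separate cultures. Each p-value therefore measures a spread between libraries that may be technical.

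In B cells the antigen-binding immunoglobulin is paired with CD79A and CD79B, whose cytoplasmic tails carry the tyrosine motifs that start the signal. LYN phosphorylates these motifs, SYK docks on them, and BTK and the adaptor BLNK bring in phospholipase PLCG2, which opens the calcium arm, while the lipid kinase PIK3CD feeds AKT. The phosphatase PTPN6 (SHP-1) damps the pathway, and the receptor phosphatase PTPRC (CD45) keeps SRC-family kinases such as LYN ready to act. Plasma cells normally shut much of this programme down as they turn to antibody secretion, and IRF4 is one of the factors that drive that change.

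Library totals ran from 6907390 to 28486960 counts. IRF4, the targeted gene, was lower with its guide in each line. Its RNA fell by 1.58, 1.37, 0.66 and 1.10 on the log2 scale in H929, MM1S, OPM2 and RPMI-8226. Editing of the gene and IRF4 protein were not measured in these data. All 8 plasma cell markers checked were detected in every group, with a summed level of 3927 to 18439 CPM, the count scaled to a common library size by trimmed means of M-values (TMM). The 7 B cell markers summed to 16.95 to 180 CPM, and of these MS4A1 passed 1 CPM in RPMI-8226 alone. Sums of 9 myeloid, 8 stromal and epithelial, and 8 erythroid and megakaryocyte markers ran from 4.10 to 50.3, from 0 to 131 and from 0.0400 to 5.04 CPM, and the stromal and epithelial sum stayed at or below 0.750 CPM outside RPMI-8226.

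With the EV guide, no line held the whole pathway. At least 1 CPM in every library was reached by 6 of the 10 genes in H929, 8 of them in MM1S, 7 in RPMI-8226 and 5 in OPM2. What was missing differed by line. SYK was nearly silent in H929 and OPM2, BTK was at 0 in OPM2 and below 1 CPM in H929, and BLNK was low in H929. CD79B was low in RPMI-8226, and PIK3CD missed the mark in OPM2. PTPRC missed it in MM1S, OPM2 and RPMI-8226, and CD79A stayed below 1 CPM in every EV library. All 10 genes were called different between the lines at the EV level, where 93.1% of all tested genes were called (edgeR quasi-likelihood F test across the EV groups, Benjamini-Hochberg adjusted p under 0.05, the rule for every call below). Between pairs of lines 8 of the 10 were called for H929 and MM1S (63.2% of all genes), 7 for H929 and OPM2 (65.4%), 9 for H929 and RPMI-8226 (75.1%), 8 for MM1S and OPM2 (61.4%), 7 for MM1S and RPMI-8226 (67.7%) and 10 for OPM2 and RPMI-8226 (72.9%). The call of CD79A (adjusted p = 0.0342) was lost without OPM2 EV replicate 2 (0.0754) or 3 (0.0955) and without RPMI-8226 EV replicate 1 (0.0574) or 3 (0.168).

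Per length, on the authors' log2 RPKM scale, PTPN6 stood highest of the 10 genes in H929, MM1S and OPM2 with the EV guide, with mean levels of 6.29, 6.32 and 4.91. In RPMI-8226, BLNK at 5.30 and SYK at 5.21 were above PTPN6 at 4.05. CD79B, the more abundant signalling chain of the receptor in every line but RPMI-8226, reached a level of 4.03 in OPM2 and 3.95 in H929, against 1.58 in MM1S and -4.42 in RPMI-8226. CD79A lay between -3.35 and -1.57 in the 4 lines, so the partner chains were expressed at unlike levels in H929, OPM2 and MM1S. LYN was the upstream kinase found in all 4 lines, at 3.98, 3.30, 3.68 and 1.69 in H929, MM1S, OPM2 and RPMI-8226. On this scale the levels of SYK in H929 (-7.02) and OPM2 (-6.12), and of BTK in OPM2 (-6.24), came from groups with 2 or fewer counts and describe only that the genes were near or at 0.

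**Figure D1:**
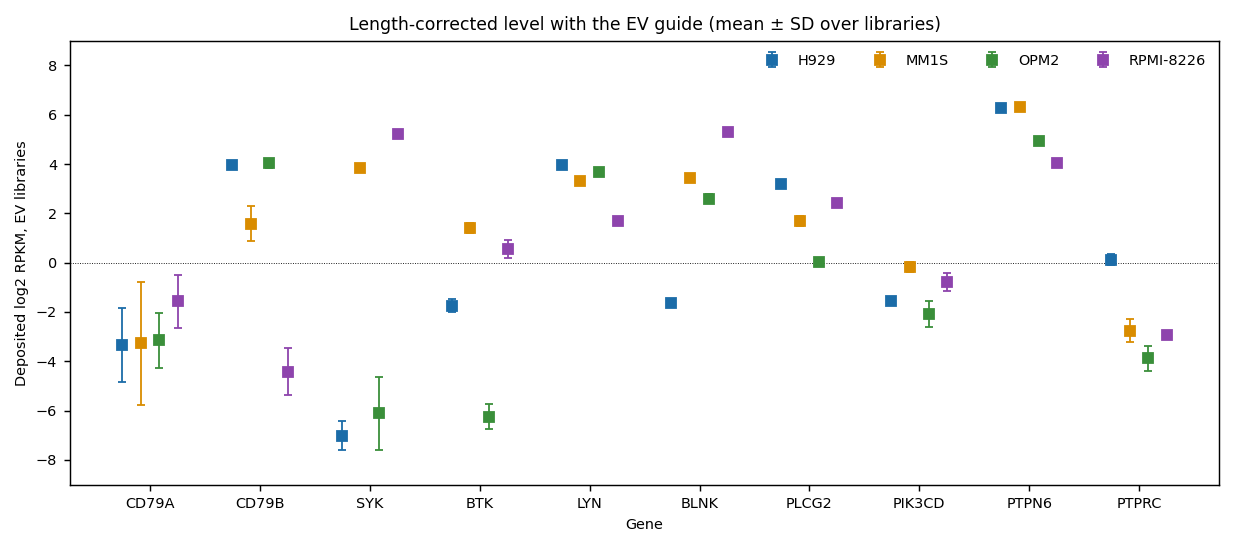
Mean log2 RPKM (per-length level as deposited, vertical axis) of each gene in the EV libraries of each line, with bars for the SD over 3 libraries (2 in MM1S). PTPN6 lies between 4.05 and 6.32 in all lines, while SYK spans from -7.02 in H929 to 5.21 in RPMI-8226.

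The order of the lines at the EV level took several forms. By group mean, SYK and BLNK shared an order, as did BTK and PIK3CD, and PLCG2 and PTPRC. CD79A, CD79B, LYN and PTPN6 each had their own. Each shared order holds neighbouring lines that were not called different. These were OPM2 and H929 for SYK (edgeR adjusted p = 0.668) and MM1S and RPMI-8226 for PIK3CD (0.0984). For PTPRC they were RPMI-8226 and MM1S, and MM1S and OPM2. No neighbours were called different for CD79A. In this paragraph and the next, a step is the fitted difference between neighbouring lines, in log2 CPM ± SE, with edgeR's adjusted p. CD79B was level in OPM2 and H929 (means of 19.6 and 19.3 CPM, adjusted p = 0.897), then fell by steps of 2.35 ± 0.27 to MM1S (3.84 CPM, 3.65e-08) and 5.68 ± 0.62 to RPMI-8226 (0.0542 CPM, 9.53e-09), the first being 2.99 and the second 5.04 without MM1S EV replicate 3, and the second 6.74 without RPMI-8226 EV replicate 1. CD79A was highest in RPMI-8226 (0.531 CPM) and none of its neighbours in the order differed (adjusted p from 0.216 to 0.929). SYK was the extreme case of the kinases. Its mean was 208 CPM in RPMI-8226, 77.9 in MM1S (step of 1.42 ± 0.12, 1.33e-11), 0.0294 in OPM2 and 0.0155 in H929. The EV libraries of OPM2 and H929 held 2 and 1 SYK counts in all, against 1466 in MM1S, a ratio of MM1S to OPM2 of 2267 (95% exact counting interval 626 to 18737) and of MM1S to H929 of 4257 (763 to 168251). Intervals and lower bounds here cover counting error only, and reads without molecular identifiers are not independent molecules.

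BTK, which SYK activates, was highest in MM1S (8.06 CPM) and RPMI-8226 (4.78 CPM), with a step of 0.73 ± 0.25 (adjusted p = 0.0104), lost on leaving out MM1S EV replicate 2 (0.122) or RPMI-8226 EV replicate 1 (0.0577). H929 followed at 0.886 CPM (4.92e-09), and OPM2 had no BTK count, so that H929 was at least 16.3-fold, RPMI-8226 at least 96.1-fold and MM1S at least 157-fold higher against a floor of 3 counts over the group. LYN ran from H929 (90.5 CPM) through OPM2 (73.0) and MM1S (56.5) to RPMI-8226 (18.2), with every step called (7.21e-04, 7.08e-04 and 1.30e-15). The lines with the least SYK were therefore those with the most LYN, 4 values that describe these lines and no more. BLNK ran the other way, from RPMI-8226 (75.5 CPM) through MM1S (20.3) and OPM2 (9.61) to H929 (0.568), again with every step called (1.22e-12, 4.05e-07 and 3.47e-16).

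PLCG2 was highest in H929 (83.5 CPM), followed by RPMI-8226 (48.1), MM1S (29.7) and OPM2 (7.10), with adjusted p of 9.24e-09, 4.96e-06 and 1.34e-14 for the 3 steps. PIK3CD, the leukocyte PI3K catalytic subunit, was low in every EV group. Its means were 5.09 CPM in MM1S, 3.73 in RPMI-8226, 1.95 in H929 and 0.823 in OPM2. MM1S and RPMI-8226 libraries did not overlap but the step missed the threshold (adjusted p = 0.0984), and it was called without RPMI-8226 IRF4 replicate 3 (0.0427) or RPMI-8226 EV replicate 1 (0.0476). PTPN6 was level in H929 (209 CPM) and MM1S (208 CPM, 0.925), lower in OPM2 (79.5 CPM) and lowest in RPMI-8226 (43.5 CPM). PTPRC was clearly present in H929 only (7.94 CPM). RPMI-8226 (0.994 CPM) and MM1S (0.946 CPM) had like means, and the step from MM1S to OPM2 (0.234 CPM) of 1.96 ± 1.03 missed the threshold (0.108), although it was called without RPMI-8226 IRF4 replicate 2 (0.0258) or 3 (0.00421).

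**Figure D2:**
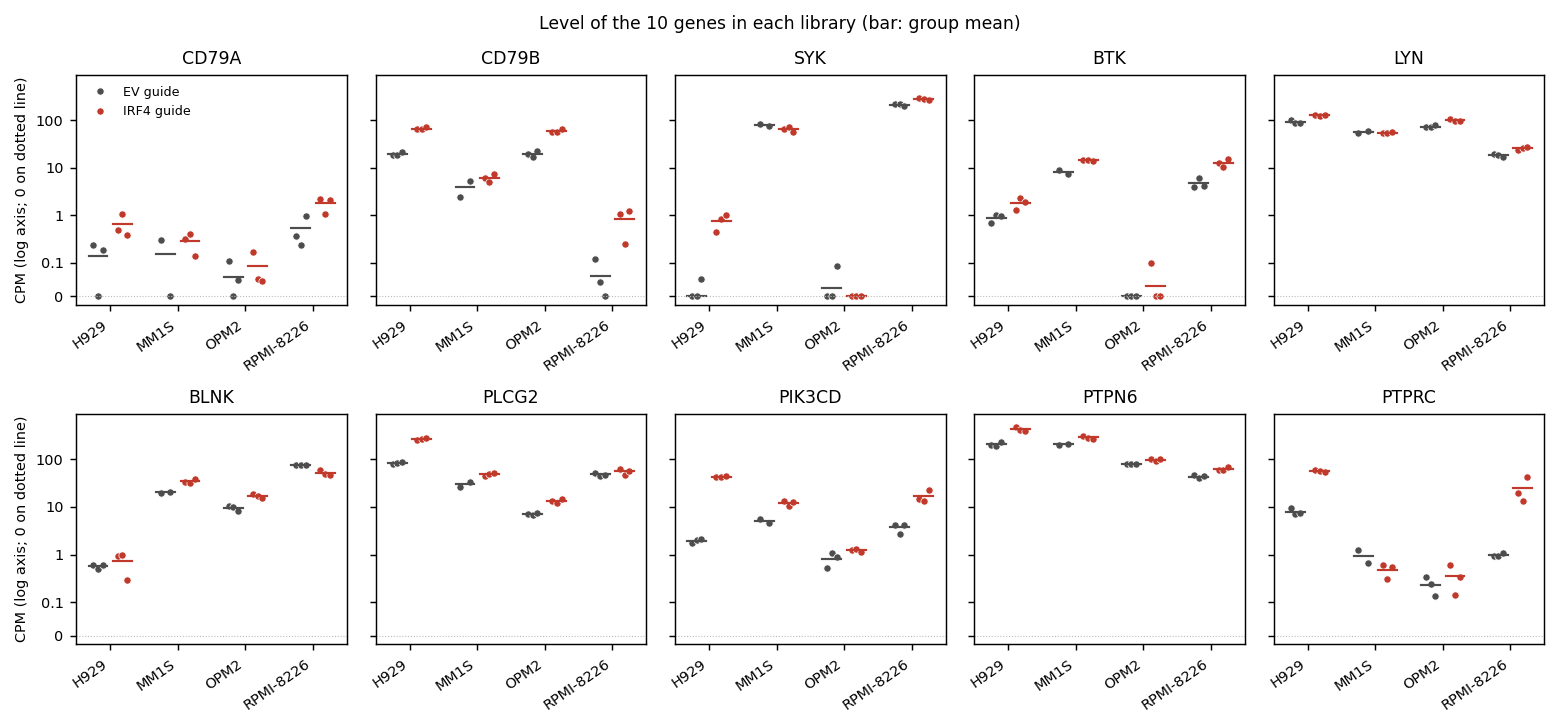
Level of each gene in each library in CPM on a log axis (0 on the dotted line), EV guide in grey and IRF4 guide in red, with a bar at the group mean. PIK3CD separates fully by guide in all 4 lines, PTPRC does so in H929 and RPMI-8226 (higher) and in MM1S (lower), and SYK lies above 50 CPM in MM1S and RPMI-8226 but near 0 in H929 and OPM2.

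With the IRF4 guide, most of the 10 genes went up in most lines. In H929, 9 of the 10 were called higher and none lower, where 58.9% of all tested genes were called, 32.9% higher and 26.1% lower. MM1S had 5 higher and none lower, where 34.6% of all genes were called (19.4% and 15.2%). In fits with a term for the replicate number, CD79B was called higher and SYK lower there too. OPM2 also had 5 higher and none lower, where 43.4% were called (23.2% and 20.2%). RPMI-8226 had 8 higher and 1 lower, where 33.9% were called (19.2% and 14.7%). On the average of the 4 lines 9 were called higher and none lower, where 57.7% were called (32.6% and 25.1%). Leaving out single libraries gave 7 to 9 called on the average, and the 9 include BTK, whose average is not read below. The 10 genes were chosen with results of these data known, so their counts describe them and test nothing. Every IRF4-guide library lay above every EV library for 9 genes in H929 (34.4% of all tested genes), 8 in RPMI-8226 (24.7%), 6 in OPM2 (28%) and 5 in MM1S (31.4%). Every such library lay below for SYK and PTPRC in MM1S (24% of all tested genes) and for BLNK in RPMI-8226 (18.4%), and for no member in H929 (27.7%) or OPM2 (23.9%). The median log2 change of the 10 genes was 1.63, 0.69, 0.67 and 0.96 in H929, MM1S, OPM2 and RPMI-8226, against 0.10, 0.07, 0.03 and 0.04 over all tested genes. Without genes that had 3 or fewer counts in a group, the medians of the members were 1.61, 0.67, 0.67 and 0.96.

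The 4 sets of changes were not of 1 form. PTPN6 was the single gene called in all 4 lines. CD79B, BTK, LYN, BLNK, PLCG2 and PIK3CD were called in 3 lines, and CD79A, SYK and PTPRC in 2. The test of the difference between lines was called for 8 of the 10 genes, where 48% of all tested genes were called, the exceptions being CD79A (adjusted p = 0.659) and BTK (0.277). With the IRF4 guide, BTK joined the genes at 1 CPM or more in every library in H929, PIK3CD did so in OPM2, and CD79A and PTPRC did so in RPMI-8226. That brought the number above 1 CPM to 7, 8, 6 and 9 in H929, MM1S, OPM2 and RPMI-8226, and no line reached all 10. Counts come from whole cultures, so more cells with a transcript and more transcript per cell cannot be told apart.

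**Figure D3:**
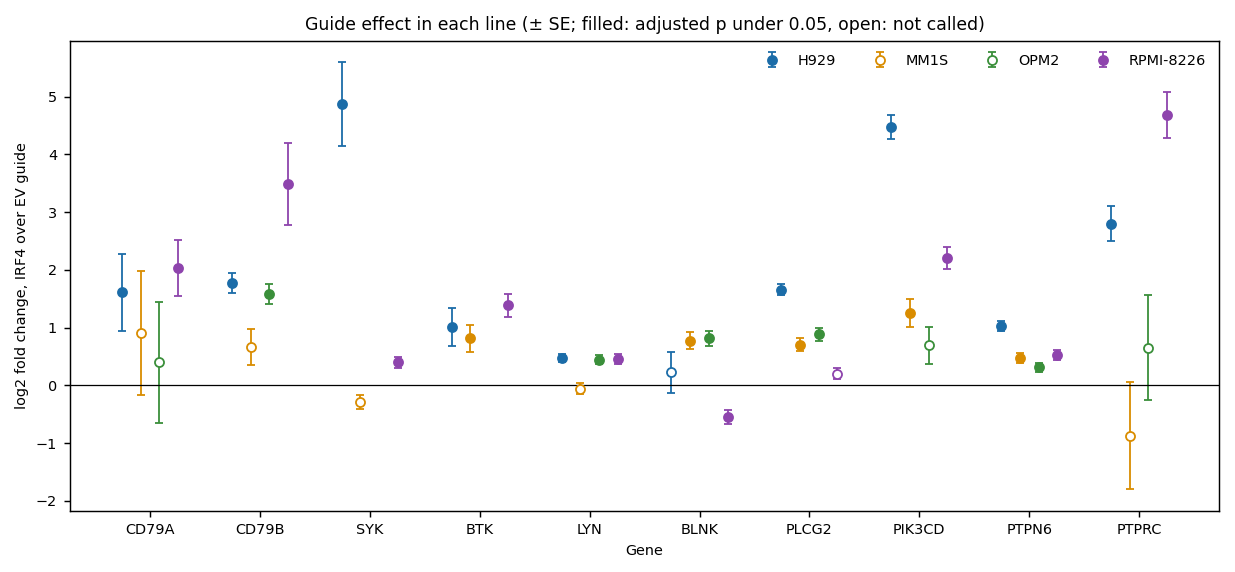
Log2 fold change with the IRF4 guide relative to EV (vertical axis) for each gene and line, with bars for ± SE, filled where the adjusted p was under 0.05 and open where not. SYK and BTK in OPM2 are not drawn because both guides had 3 or fewer counts there. The highest points are SYK and PIK3CD in H929 and PTPRC in RPMI-8226, and BLNK in RPMI-8226 is the lowest filled point.

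Both receptor chains rose, CD79B in 3 lines and CD79A in 2. CD79B (Entrez 974, chr17:63928740-63932331 on GRCh38.p14) read 63.9, 63.2 and 70.5 CPM with the IRF4 guide in H929 against 18.1, 18.4 and 21.5 with EV. In OPM2 the values were 57.3, 56.4 and 65.4 against 19.5, 16.5 and 22.7. Both lines separated fully by guide and about to the same extent, with log2 changes of 1.77 ± 0.17 (adjusted p = 2.37e-09) and 1.59 ± 0.17 (4.12e-08). RPMI-8226 went from 0.123, 0.0391 and 0 CPM with EV to 1.05, 0.245 and 1.24 CPM, or from 4 counts to 56, a log2 change of 3.49 ± 0.71 (4.56e-04) that was 4.56 without RPMI-8226 EV replicate 1. The gene thus rose in RPMI-8226 from near 0 to a level that was still the lowest of the 4 lines. MM1S overlapped, with 6.11, 4.96 and 7.20 CPM against 2.45 and 5.24, and its change of 0.67 ± 0.31 missed the threshold (0.0988). It was called in 6 of 32 alternatives (lowest adjusted p of 0.0155), among them with either replicate block and without RPMI-8226 IRF4 replicate 2 (0.0303). Leaving out single libraries gave changes from 0.20 to 1.30, the latter without MM1S EV replicate 3. The difference between lines (0.0192) was not called without MM1S EV replicate 3 (0.148) or RPMI-8226 EV replicate 2 (0.0528). CD79B shares 288 exon bases with AC127029.3 on the same strand, a gene not under that name in the count table.

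CD79A (Entrez 973, chr19:41877279-41881372), the partner chain, remained rare. In RPMI-8226 it read 2.25, 1.06 and 2.09 CPM with the IRF4 guide against 0.370, 0.235 and 0.987 with EV, without overlap, and the change was 2.04 ± 0.48 (adjusted p = 0.00142). In H929 it read 0.480, 1.09 and 0.387 CPM against 0.239, 0 and 0.186, also without overlap, with a change of 1.61 ± 0.67 (0.0405). The H929 call rested on 29 against 10 counts and was lost without IRF4 replicate 1 (0.0565) or 2 (0.139) and without EV replicate 1 (0.0532), 2 (0.0892) or 3 (0.0872). MM1S (14 against 3 counts, ratio 1.92, counting interval 0.536 to 10.4) and OPM2 (7 against 4 counts) overlapped and gave adjusted p of 0.570 and 0.815. The average over lines was 1.24 ± 0.43 (0.0146). On log2 RPKM, limma gave changes of 1.45 in H929, 1.67 in RPMI-8226 and 0.97 on average and called none of them (adjusted p of 0.158, 0.156 and 0.0630). The edgeR average was not called without OPM2 IRF4 replicate 1 (0.129), and was 2.41 without MM1S EV replicate 2.

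Among the kinases, SYK (Entrez 6850, chr9:90801600-90898549) moved in 3 different ways. In H929 it was at 0, 0 and 0.0466 CPM with EV and at 0.440, 0.845 and 1.02 CPM with the IRF4 guide, or 1 count against 39. The libraries did not overlap, and the ratio was 39.4 with a counting interval of 6.67 to 1596 (edgeR adjusted p = 1.39e-06). The fitted log2 change of 4.88 was 6.75 without EV replicate 3, which held the single count, and 4.17 without EV replicate 1. In RPMI-8226, where SYK was abundant, it rose from 217, 212 and 196 CPM to 284, 279 and 261 CPM, a change of 0.40 ± 0.10 (0.00199) that limma did not call on log2 RPKM (0.48, adjusted p = 0.530). In MM1S it was instead 65.6, 69.7 and 55.1 CPM against 82.3 and 73.4 with EV. All 3 MM1S libraries with the IRF4 guide lay below both EV libraries, and the change of -0.29 ± 0.12 just missed the threshold (0.0543). It was called, in the same direction, in 16 of 32 alternatives, among them with either replicate block. Adjusted p over the 32 ran from 0.00514 (replicate block within each line) to 0.750 (deposited log2 RPKM). Of the 16 alternatives, 8 left out a single library (0.0263 to 0.0479): H929 IRF4 replicates 1 and 3, H929 EV replicate 3, MM1S IRF4 replicate 2, OPM2 EV replicates 1, 2 and 3, and RPMI-8226 IRF4 replicate 3. OPM2 held no SYK count with the IRF4 guide and 2 with EV, too few for a fold. The lines differed (adjusted p = 2.14e-06), and no average over them is given because of OPM2.

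BTK (Entrez 695, chrX:101349450-101390796) rose in the 3 lines that expressed it. RPMI-8226 went from 3.99, 6.18 and 4.17 CPM to 12.8, 10.5 and 14.9 CPM, a change of 1.39 ± 0.20 (adjusted p = 5.07e-06). MM1S went from 8.76 and 7.36 CPM to 14.4, 14.2 and 13.99 CPM (0.81 ± 0.24, 0.00832). The guides did not overlap in either line, nor in H929, where 0.678, 1.00 and 0.978 CPM became 1.32, 2.29 and 1.89 CPM (1.02 ± 0.33, 0.00871). The H929 call was lost without EV replicate 1 (0.0748) and the MM1S call without EV replicate 3 (0.101), and neither was called by limma on log2 RPKM, with changes of 0.38 in H929 and 0.68 in MM1S (adjusted p of 0.482 and 0.292). OPM2 had 3 counts, all in replicate 1 of the IRF4 guide, and none with EV. The fitted average over lines (0.00679) hung on that library (1.00 without it) and is not read further.

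LYN (Entrez 4067, chr8:55879835-56014169), the kinase that opens the cascade and also loads inhibitory receptors, rose by a like amount in 3 lines. H929 read 128, 124 and 127 CPM with the IRF4 guide against 97.7, 85.7 and 88.1 with EV (0.48 ± 0.08, adjusted p = 3.46e-06). OPM2 read 105, 96.9 and 96.3 CPM against 70.6, 71.5 and 76.9 (0.44 ± 0.08, 2.04e-05), and RPMI-8226 read 23.7, 25.6 and 26.5 CPM against 19.6, 18.6 and 16.3 (0.46 ± 0.09, 9.95e-05). These 3 lines separated by guide although their starting levels lay far apart. MM1S did not separate, with 54.1, 53.3 and 55.8 CPM against 53.7 and 59.3 (-0.06 ± 0.09, 0.701). The difference between lines was called (0.00125). MM1S was therefore the line in which neither LYN nor SYK was called higher.

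The adaptor BLNK (Entrez 29760, chr10:96189171-96271569), which ties SYK to PLCG2, was the one gene of the 10 that the main fit called in both directions. With either replicate block SYK was called in both directions too, being lower in MM1S. BLNK rose in MM1S from 19.8 and 20.9 CPM to 34.1, 32.2 and 38.6 CPM (0.78 ± 0.15, adjusted p = 1.09e-04). It rose in OPM2 from 10.7, 9.84 and 8.32 CPM to 18.5, 16.9 and 15.3 CPM (0.82 ± 0.13, 7.92e-06). It fell in RPMI-8226, the line with most of it, from 75.6, 75.5 and 75.3 CPM to 58.4, 49.2 and 47.5 CPM (-0.55 ± 0.11, 3.94e-04). None of these 3 lines overlapped, and H929 did, at 0.921, 0.965 and 0.290 CPM against 0.599, 0.500 and 0.606 (0.23 ± 0.36, 0.611). The lines differed (2.52e-07), so the average of 0.32 ± 0.11 (0.0109) mixes opposite changes, and it was not called without H929 IRF4 replicate 1 (0.233). On the deposited log2 RPKM values, tested with limma, BLNK was called in none of the 3 lines (adjusted p of 0.166, 0.211 and 0.282 in MM1S, OPM2 and RPMI-8226), with changes of 0.75, 0.60 and -0.56. BLNK shares 355 exon bases with ZNF518A on the opposite strand, and the strand setting of the counting is not given in the sources used here.

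PLCG2 (Entrez 5336, chr16:81739041-81962685), the phospholipase that releases calcium from stores through IP3, rose most where it was already highest. H929 went from 80.0, 82.1 and 88.6 CPM to 257, 261 and 273 CPM (1.66 ± 0.09, adjusted p = 3.27e-15). MM1S went from 26.3 and 33.1 to 45.7, 48.9 and 51.5 CPM (0.71 ± 0.12, 2.15e-05), and OPM2 from 7.09, 6.64 and 7.57 to 13.3, 11.96 and 14.4 CPM (0.89 ± 0.12, 4.43e-07). All 3 lines separated by guide. RPMI-8226 overlapped, with 62.6, 48.0 and 55.8 CPM against 52.8, 44.5 and 46.9 (0.20 ± 0.09, 0.0973). It was called higher in 5 of 32 alternatives, among them with either replicate block and without its IRF4 replicate 2 (0.0148) or EV replicate 1 (0.0487). The average was 0.86 ± 0.05 (1.60e-14) and the lines differed (4.45e-09). PLCG2 shares 386 exon bases with AC099524.1 and 318 with RN7SKP176 on the same strand, neither under that name in the count table.

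PIK3CD (Entrez 5293, chr1:9627258-9729114), the PI3K subunit of leukocytes, had the largest average change of the 8 genes whose average could be read. In H929 it went from 1.76, 2.00 and 2.10 CPM to 41.8, 42.1 and 45.4 CPM, a 22.2-fold rise (log2 4.48 ± 0.21, adjusted p = 7.38e-17). RPMI-8226 went from 4.28, 2.74 and 4.17 CPM to 14.96, 13.1 and 22.9 CPM (2.22 ± 0.19, 3.73e-10), with replicate 3 the highest. MM1S went from 5.605 and 4.57 CPM to 13.2, 10.3 and 12.9 CPM (1.26 ± 0.24, 1.13e-04). H929 was the third of the 4 lines with EV and far the highest with the IRF4 guide. In OPM2 the libraries did not overlap either, at 1.23, 1.31 and 1.12 CPM against 0.520, 1.07 and 0.881, but the change of 0.70 ± 0.32 missed the threshold (0.0831). It was called in 4 of 32 alternatives, with scaling by library totals (0.0460), with no filter on low counts (0.0461), with a replicate block shared by all lines (0.0493) and without RPMI-8226 IRF4 replicate 3 (0.0359). With the replicate block within OPM2 it was not called (0.0551), and on the deposited log2 RPKM values the change was 0.032 (limma, adjusted p = 0.935). The average was 2.16 ± 0.12 (2.57e-15) and the lines differed (1.43e-09). PIK3CD shares 89 exon bases with CLSTN1 on the opposite strand.

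Of the 8 members whose promoter windows were searched, PIK3CD was the one with a match to a motif. IRF4 binds DNA with ETS or AP-1 partners, or on interferon response elements, and 5 motifs were looked for on both strands. They were the ETS-IRF composite (GGAA, 2 free bases, GAAA), the interferon response element (GAAA, 2 free bases, GAAA), the short AP-1-IRF composite (GAAA directly before TGANTCA), the long one (TTTC, 4 free bases, TGANTCA) and the octamer ATTTGCAT of B cell promoters. The first pair share their last 4 bases, so 1 run of bases can match both. Windows ran from 250 bases before to 50 after an annotated start (RefSeq, GRCh38.p14) and were given for 8 of the 10 genes. Of 35114 such windows over all genes, 2.82%, 3.57%, 0.162%, 0.114% and 1.77% held the 5 motifs in that order. Of the 3 PIK3CD windows, the one at chr1:9651481-9651780 held an interferon response element at bases -87 to -78 from the start, and the one at chr1:9691217-9691516 held an ETS-IRF composite, read on the reverse strand, at -17 to -8 within a run of T and C. They are shown with the match in capitals, beside the PTPRC window (chr1:198638790-198639089), which held none of the 5, since these were the genes with the largest rises in a single line, leaving aside SYK in H929 with its 1 EV count. All 3 lie on the plus strand.
PIK3CD upstream start: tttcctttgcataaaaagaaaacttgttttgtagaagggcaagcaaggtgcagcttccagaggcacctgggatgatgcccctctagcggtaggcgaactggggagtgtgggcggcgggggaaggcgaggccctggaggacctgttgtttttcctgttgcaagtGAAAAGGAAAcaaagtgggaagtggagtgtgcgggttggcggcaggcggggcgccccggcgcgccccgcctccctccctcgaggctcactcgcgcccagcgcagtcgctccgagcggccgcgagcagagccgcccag
PIK3CD downstream start: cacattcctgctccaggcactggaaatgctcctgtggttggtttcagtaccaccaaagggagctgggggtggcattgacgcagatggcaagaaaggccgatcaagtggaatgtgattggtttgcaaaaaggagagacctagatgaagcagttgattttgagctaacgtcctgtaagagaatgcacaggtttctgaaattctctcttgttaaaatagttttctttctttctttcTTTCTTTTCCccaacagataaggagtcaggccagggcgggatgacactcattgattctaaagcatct
PTPRC: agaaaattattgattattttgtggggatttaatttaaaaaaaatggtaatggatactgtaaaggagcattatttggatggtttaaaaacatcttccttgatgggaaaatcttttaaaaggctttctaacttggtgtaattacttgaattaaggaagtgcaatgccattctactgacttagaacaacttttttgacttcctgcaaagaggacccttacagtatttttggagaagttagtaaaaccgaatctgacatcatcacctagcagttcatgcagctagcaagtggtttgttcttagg
A match of these letters is a description of the window and says nothing of binding in these cells, which was not measured here.

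The phosphatase PTPN6 (Entrez 5777, chr12:6946577-6961316), which docks on inhibitory receptors and dephosphorylates the kinases, was called higher in every line. H929 read 469, 418 and 397 CPM with the IRF4 guide against 203, 193 and 232 with EV (1.03 ± 0.08, adjusted p = 3.48e-12). MM1S read 312, 284 and 269 CPM against 202 and 213 (0.48 ± 0.09, 1.25e-04). RPMI-8226 read 60.2, 60.6 and 67.5 CPM against 45.8, 41.0 and 43.6 (0.53 ± 0.08, 1.43e-05). No guide groups overlapped in these lines, nor in OPM2, where 81.5, 78.8 and 78.3 CPM became 102, 91.1 and 104 CPM (0.31 ± 0.08, 0.00240). The size differed between lines (3.68e-05), largest in H929.

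PTPRC, or CD45 (Entrez 5788, chr1:198638713-198757476), is the common leukocyte antigen that myeloma cells often lack. In H929 it went from 9.38, 6.999 and 7.45 CPM to 58.4, 57.7 and 53.3 CPM (2.80 ± 0.30, adjusted p = 1.52e-07). In RPMI-8226 it went from 0.946, 0.939 and 1.10 CPM to 19.4, 13.4 and 42.4 CPM, a 25.7-fold rise (4.68 ± 0.40, 5.03e-08). Neither line overlapped, and in RPMI-8226 replicate 3 was the highest by far, with a change of 4.06 without it. MM1S stayed low, with 0.597, 0.303 and 0.554 CPM against 1.22 and 0.669 (-0.87 ± 0.93, 0.526), all 3 below both EV libraries. OPM2 stayed low and overlapped, with 0.601, 0.140 and 0.332 CPM against 0.334, 0.237 and 0.132 (0.65 ± 0.91, 0.615). MM1S had 24 PTPRC counts against 18 and OPM2 29 against 14, and in both lines the change was smaller than its SE. The lines differed (8.39e-04).

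CD45 is carried by T and NK cells too, and the summed level of 12 of their markers rose with the guide. All 12 were in the count table and 11 were tested. Called higher were 6 in H929 (32.9% of all tested genes), 4 in RPMI-8226 (19.2%), 3 in OPM2 (23.2%) and 1 in MM1S (19.4%). None was called lower. In each line 7 or 8 of the 11 had 3 or fewer counts in a group. The sums cover all 12 markers. Their summed level went from 13.998 to 16.6 CPM with EV to 116 to 131 CPM with the IRF4 guide in H929, from 3.51 to 6.61 to 10.4 to 12.9 CPM in RPMI-8226, from 5.24 to 5.30 to 10.5 to 13.3 CPM in MM1S, and from 0.119 to 0.631 to 2.99 to 4.27 CPM in OPM2. In H929 the sum was mostly CD3E, whose mean went from 14.1 to 107 CPM, followed by NKG7 (0.615 to 9.09 CPM) and TRAC (0.682 to 4.96 CPM). CD3D reached 0.744 CPM and CD3G 0.646 CPM there, and CD8A and KLRD1 had 1 and 0 counts. In RPMI-8226 it was mostly CD8A (3.70 to 5.76 CPM) and CD4 (0.657 to 2.77 CPM), with CD3D at 0.0136 CPM. Of 5 B cell markers tested, 3 were called higher in H929 and 3 in RPMI-8226, to be read against the same shares, and none in MM1S or OPM2. PAX5 went from 0.581 to 19.2 CPM in H929, and BLK from 66.7 to 115 CPM in RPMI-8226. The part of these markers in the PTPRC result was not tested.

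The genes whose level was most like that of a member over the 23 libraries were found by Pearson's r on log2 CPM among 14836 genes, as a description in which 5 or 6 libraries share a line. SYK was nearest to FAAH2 and GNG2 (both 0.99), PLCG2 to CTSF (0.99) and SLC44A5 (0.98), and PTPN6 to AKNA and STK17B (both 0.99). BTK was nearest to CXCL16 and SP140, and BLNK to DUSP22 and VANGL1 (all 0.98). CD79B and LYN, both members, had DDAH2 as their nearest gene (0.98), followed by LYN for CD79B and ARMCX3 for LYN (both 0.98). The lowest best values were those of CD79A with MYO15A (0.94) and RUNDC3A-AS1 (0.92), PIK3CD with PLCD1 and SLC38A10, and PTPRC with IGHE and HIST1H3G (all 0.93).

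The 6 lists described here hold 114 genes and were written for the ligand-binding and co-receptor chains, inhibitory receptors, other kinases, adaptors, the calcium arm with downstream signalling, and other phosphatases and brakes. Of the 108 tested, 58 were called higher and 19 lower on the average of the 4 lines, with a median of 0.29 (0.18 without 23 genes that had 3 or fewer counts in a group), against 0.11 (0.02 without such genes) over all tested genes. Over all tested genes 32.6% were called higher and 25.1% lower on average, against which the counts of each list below are also to be read. In the single lines 58 and 20 were called higher and lower in H929 (32.9% and 26.1% of all tested genes), 38 and 14 in MM1S (19.4% and 15.2%), 39 and 17 in OPM2 (23.2% and 20.2%), and 40 and 13 in RPMI-8226 (19.2% and 14.7%). Values below are averages over the lines unless a line is named, with edgeR's adjusted p.

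**Figure D4:**
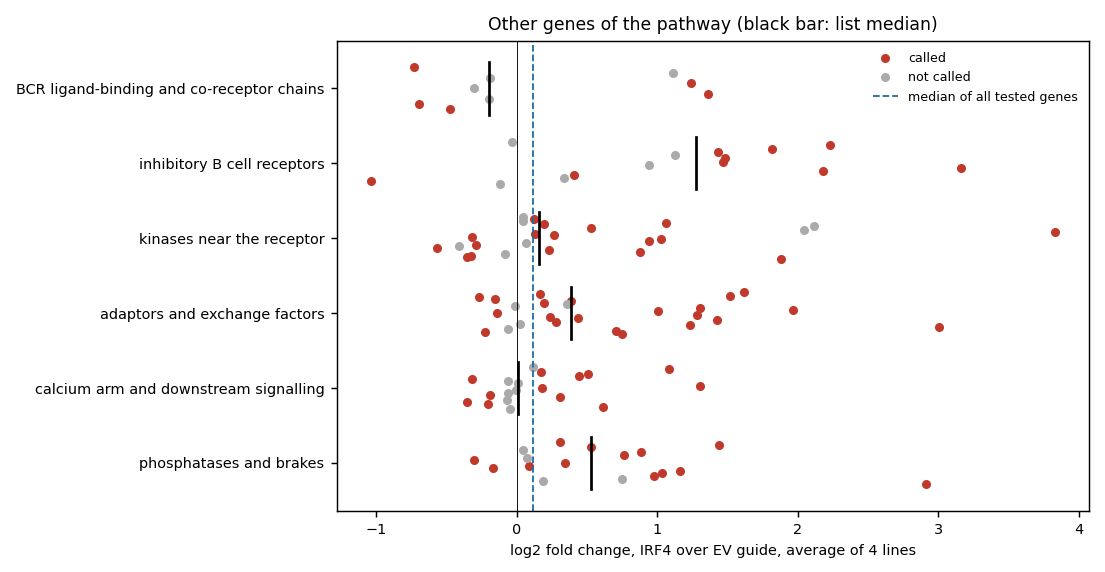
Log2 fold change with the IRF4 guide relative to EV, averaged over the 4 lines (horizontal axis), for each of the 108 tested genes in 6 lists, red where called, with a black bar at each list's median and a dashed line at the median of all tested genes (0.11). The inhibitory receptors have the highest median (1.28) and the ligand-binding and co-receptor chains the lowest (-0.20).

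Of 9 ligand-binding and co-receptor chains, 2 were called higher and 3 lower, with a median of -0.20. The complement receptor CR2, which lowers the threshold of the B cell receptor, rose by 1.24 ± 0.16 (adjusted p = 6.52e-07), and IFITM1, found in the same co-receptor complex, by 1.36 ± 0.12 (3.53e-11). IFITM1 rose in H929 (2.44) and OPM2 (3.09) but was at -0.13 and 0.03, not called, in MM1S and RPMI-8226. The plasma cell ectoenzyme CD38 (-0.73 ± 0.14, 1.57e-04) and the surrogate light chain gene IGLL1 (-0.70 ± 0.12, 6.63e-06) fell. IGLL1 is close in sequence to IGLL5 and other light chain genes, so its counts are uncertain.

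Of 14 inhibitory receptors, 8 were called higher and 1 lower, with a median of 1.28, or 1.43 over the 5 genes that had more than 3 counts in every group. FCRL4, an Fc-receptor-like protein of memory B cells, went from 0.166 to 5.06 CPM in H929, and its average of 3.16 ± 0.36 (adjusted p = 7.90e-09) rests in part on OPM2, with 1 count under EV and 68 under the IRF4 guide. CEACAM1, which recruits PTPN6, rose by 1.43 ± 0.17 (1.27e-08). PECAM1 fell by 1.04 ± 0.16 (5.96e-06), most in H929, from 120 to 24.7 CPM, whereas in RPMI-8226 it rose by 1.13 from 0.497 CPM (0.0432).

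The 24 other kinases had 12 called higher, 5 lower and a median of 0.16. The regulatory subunit PIK3R1, which partners PIK3CD, rose by 0.94 ± 0.04 (adjusted p = 5.96e-17), from 33.7 to 124 CPM in H929 and from 50.4 to 119 CPM in OPM2. The catalytic subunit PIK3CG rose in all 4 lines (average 1.03 ± 0.05, 2.88e-16), and the broadly expressed PIK3CB fell in all 4 (-0.32 ± 0.04, 2.89e-08). The SRC-family kinase YES1 fell in H929 (-1.33) and OPM2 (-0.78) and rose in RPMI-8226 (0.91), with an average of -0.35 ± 0.05 (1.53e-06).

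Adaptors and exchange factors were called higher in 17 of 25 cases and lower in 4, with a median of 0.39. LCP2 (SLP-76), which does in T cells what BLNK does in B cells, rose in all 4 lines by 1.01 ± 0.05 on average (adjusted p = 5.93e-17), and in H929, where BLNK was low, LCP2 went from 121 to 299 CPM. LAT, its membrane scaffold, rose by 1.31 ± 0.07 (2.27e-16), in 3 lines and not in MM1S (0.09, 0.665). The cytoskeletal adaptor CD2AP (-0.27 ± 0.04, 2.60e-06) and the exchange factor VAV2 (-0.23 ± 0.06, 9.43e-04) fell, although VAV2 rose in RPMI-8226 (0.39).

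In the calcium arm and the signalling downstream of it 8 of 19 genes were called higher and 4 lower, with a median of 0.01. The store sensor STIM1 rose by 0.61 ± 0.03 (adjusted p = 1.91e-15) and the IP3 receptor ITPR2 by 0.44 ± 0.05 (9.48e-09), each in all 4 lines. The IP3 receptor ITPR3 fell by 0.32 ± 0.04 (1.16e-08), with -1.28 in H929 against 0.28 in MM1S, both called, and the calcineurin subunit PPP3CC fell by 0.36 ± 0.06 (2.80e-06).

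Of 17 further phosphatases and brakes 11 were called higher and 2 lower, with a median of 0.53 (0.32 without 3 genes of 3 or fewer counts in a group). The inositol phosphatases that remove the product of PIK3CD rose in all 4 lines, INPP5D (SHIP1) by 0.89 ± 0.05 on average (adjusted p = 3.80e-15) and INPPL1 (SHIP2) by 0.76 ± 0.04 (7.53e-17). The tyrosine phosphatases PTPN11 (-0.30 ± 0.03, 7.24e-09) and PTPN2 (-0.17 ± 0.04, 0.00147) fell.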

How the data were processed

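RNA was sequenced from 23 libraries of 4 myeloma lines. Unnormalized counts for each Entrez gene were deposited, as were, for 16220 genes, log2 RPKM values made by the authors. Subread, featureCounts and limma were used on GRCh38 (hg38), per the submitters' processing notes, which name no versions. The strand setting is not given in the sources used here. Low counts were filtered by group (filterByExpr), scaled by trimmed mean of M-values (TMM) and fitted at once for all 8 groups with robust quasi-likelihood dispersions in edgeR 4.0.16 (R 4.3.3). P-values were adjusted by Benjamini-Hochberg over 16468 genes, 490 genes of the table having no symbol. The SE is the size of the log2 change over the square root of F. Folds with 1 to 3 counts carry a 95% exact binomial counting interval, those against 0 counts use a group-wide floor of 3 counts, and no fold is given where both groups had 3 or fewer. Total counts of 6907390 to 28486960 per library set this precision. The fit was also run on simulated data, with an outcome not reported here. Replicate libraries differed by more than sampling noise (chi-square per gene 3.44 to 24.7 over 22 pairs).

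Members, lists and alternatives were chosen with earlier results of these data known. Named genes are the 10 members, IRF4, the 2 most like genes of each member (mean of at least 1 CPM in a group, log2 CPM with a prior count of 2), and per list up to 2 rises and 2 falls with the smallest adjusted p on the average. CD3E and the other marker genes beside PTPRC were named after their values were seen. Alternatives were other scalings, filters, DESeq2 1.42.0, limma 3.58.1 on the deposited log2 RPKM, each line alone, a replicate block and leaving out each library. Individual values of some list genes are not reported here. The main fit paired no libraries in any line, and a replicate block was used only in alternatives. In OPM2 same-numbered libraries deviated together in all 3 pairs (r of 0.144 to 0.183 across genes), so the blocked value stands beside PIK3CD there. That is a hint from the data and not from the labels.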

Additional observations from a re-analysis of the deposited data

Results flagged for a closer look

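The guide effect differed between the 4 lines by an F test with 3 degrees of freedom (edgeR, adjusted over all tested genes) for 8 of the 10 pathway members and for IRF4. The same test was called for 48% of all tested genes. The adjusted p was 1.43e-09 for PIK3CD, 4.45e-09 for PLCG2, 2.52e-07 for BLNK, 2.14e-06 for SYK, 3.68e-05 for PTPN6, 8.39e-04 for PTPRC, 0.00125 for LYN and 0.0192 for CD79B. BLNK rose in MM1S and OPM2 and fell in RPMI-8226, and LYN rose in every line but MM1S, where it was not called. IRF4 RNA itself differed (0.0317), with log2 changes from -1.58 in H929 to -0.66 in OPM2. That difference was lost without H929 EV replicate 1 (0.0545) or 2 (0.0515), MM1S EV replicate 2 (0.0507), OPM2 IRF4 replicate 2 (0.0615), or OPM2 EV replicate 1 (0.0724) or 3 (0.0742).

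Among the named genes of the pathway lists the same test was called for 17. It was called for 74 of the 108 tested list genes and for 48% of all tested genes. The named genes were picked for the smallest adjusted p on the average, so their count describes them and tests nothing. Of the kinases, YES1 (1.51e-12), PIK3R1 (7.00e-12) and PIK3CG (6.70e-08) differed. PIK3R1 was 1.88 in H929 and 0.15 in RPMI-8226, and YES1 changed sign between H929 and RPMI-8226. Of the adaptors, LCP2 (8.31e-11), LAT (4.29e-09), VAV2 (2.47e-05) and CD2AP (0.0129) differed. Of the calcium arm, ITPR3 (8.25e-12) and STIM1 (5.68e-07) differed, and of the brakes INPPL1 (5.28e-09), INPP5D (7.07e-06) and PTPN11 (0.0203). STIM1, INPPL1 and INPP5D rose in all 4 lines, so their difference was one of size. Of the receptors, IFITM1 (5.47e-10), PECAM1 (1.02e-05), CD38 (0.00136), FCRL4 (0.00313) and IGLL1 (0.0293) differed. CD38 fell by 1.60 in H929 and was 0.25, not called, in RPMI-8226.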

How the results depend on the processing

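No called change of a member took the opposite sign under any alternative run, and the 27 changes of sign were all of values not called. The count of members called in MM1S was 3 on the deposited log2 RPKM values instead of 5. By limma on those values BLNK was called in no line (adjusted p of 0.166, 0.211 and 0.282 in MM1S, OPM2 and RPMI-8226). Its average was not called either (0.972). Calls of CD79A in RPMI-8226 (0.156), in H929 (0.158) and on average (0.0630) were lost too. So were BTK in H929 (0.482) and MM1S (0.292), and SYK in RPMI-8226 (0.530). The limma fit takes 1 spread per gene over all libraries. The SD of SYK was 1.46 in OPM2 with EV and 0.81 in H929 with the IRF4 guide. In RPMI-8226 it was 0.04 with EV and 0.07 with the IRF4 guide. For BLNK the SD was 1.25 in H929 with the IRF4 guide, against 0.02 and 0.17 in RPMI-8226. The cause of the lost calls was not tested. The median log2 change of all genes moved there from 0.10 to -0.07 (H929), 0.03 to -0.08 (OPM2) and 0.11 to -0.03 (average), and with library totals from 0.03 to 0.14 (OPM2). Higher calls were 45.6% of all calls in H929 (main 55.7%) and 46.2% on average (56.5%) on log2 RPKM, and 66.7% in OPM2 (53.5%) with library totals.

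Values that changed sign on log2 RPKM were CD79A in OPM2 (-0.47), BLNK in H929 (-0.76), PTPRC in OPM2 (-0.41), and at the EV level CD79A for H929 minus OPM2 (-0.20) and minus MM1S (-0.075, and -0.047 with 1 replicate block across lines). PTPN6 for H929 minus MM1S was -0.033 on log2 RPKM, -0.15 with library totals and -0.010 with that block. PTPRC for MM1S minus RPMI-8226 was 0.19, 0.063 with library totals, 0.00466 without a filter and 0.00942 at a minimum of 1 CPM in 3 libraries. Leaving out single libraries gave -0.00196 to 5.58 for CD79A in MM1S, -0.56 to 1.35 for CD79A in OPM2, -0.13 to 0.019 for LYN in MM1S and -0.28 to 0.64 for BLNK in H929. At the EV level it gave -0.74 to 4.84 for CD79A (H929 minus MM1S), -0.16 to 0.086 for CD79B (H929 minus OPM2), -0.072 to 0.066 for PTPN6 (H929 minus MM1S) and -0.54 to 0.33 for PTPRC (MM1S minus RPMI-8226).

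Same-numbered libraries of the 2 guides deviated together weakly (r of 0.0256 to 0.183 in 11 pairs, 6 over 0.1). All 3 pairs of OPM2 were over 0.1, and no other line had every pair over it. The main fit pairs no libraries in any line, although 21 of 22 libraries were nearest to their own number. With 1 replicate block across the lines, 7 members instead of 5 were called in MM1S. CD79B joined as higher and SYK as lower (edgeR adjusted p of 0.0197 and 0.0115). The count was 6 instead of 5 in OPM2 (PIK3CD, 0.0493) and 10 instead of 9 in RPMI-8226 (PLCG2, 0.0437). With a replicate block within each line these were 7, 5 and 10 members, with adjusted p of 0.0197 for CD79B, 0.00514 for SYK, 0.0551 for PIK3CD in OPM2 (not called) and 0.0199 for PLCG2. Neither block changed another guide call of a member. The shared block called 6360 genes instead of 5693 in MM1S and 9865 instead of 9505 on average. Depth limits CD79A in every line, SYK in H929 and OPM2, BTK in OPM2 and PTPRC in MM1S and OPM2.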
